A study of Danio rerio with 36 samples.

Results

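The insulin-like growth factor (IGF) axis was followed here as 10 zebrafish genes, taken by gene name from a table of 30221 genes. They are the ligand genes igf1, igf2a and igf2b, the binding protein genes igfbp1a, igfbp1b, igfbp2a and igfbp3, the receptor genes igf1ra and igf1rb, and irs2b, which encodes a docking protein below the receptors. All 10 were found, and all 10 passed the filter for testing, at least 1 FPKM (a count scaled to transcript length and to the depth of the library) in at least 3 libraries.

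IGF ligands are secreted peptides that act through receptor tyrosine kinases closely related to the insulin receptor. Igf1 is made in large part by the liver under growth hormone, while the igf2 genes are used by many tissues from early development on. Activated receptors phosphorylate docking proteins of the IRS family, which carry the signal to PI3K, AKT and mTOR and keep FOXO transcription factors out of the nucleus. Binding proteins hold the ligands outside the cell and mostly limit their access to the receptor. The igfbp1 genes are known in fish and mammals as genes of the liver that are raised by fasting, low insulin, hypoxia and glucocorticoids, and insulin lowers their transcription. IGF signalling is also known to be needed in the regenerating fin of adult zebrafish.

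Whole wild-type larvae were profiled by RNA sequencing in 12 groups of 3 libraries. Fertilised eggs were put at 6 h into regular culture medium or into medium with 130 mM or 222 mM glucose and stayed there for 14 days, after which the caudal fin was cut off where the spinal cord ends, and the larvae went back to the medium they came from. Each medium has 4 groups, uncut larvae and larvae taken 3, 24 and 48 h after the amputation. The text of the design gives the higher dose once in nM, and the sample labels give it in mM. Every group is of wild-type animals and no group carries another agent. The uncut larvae of a medium form 1 group, whose age is not stated, and amputation therefore cannot be told apart from the hours of further growth. Larvae taken at 3 h may also differ from those taken at 24 and 48 h in the time of day. None of the 12 groups was in a sugar that is not taken up, as a control for osmotic strength. Effects of glucose and of osmotic strength therefore cannot be told apart. The labels do not say that the replicates of a group came from separate animals or pools, so p-values measure the spread between these libraries, which may be technical.

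Depth ran from 47904694 to 67514889 counts per library, a ratio of 1.41 between the deepest and the shallowest. In 4 libraries the log2 CPM correlated with the other replicates less well, by over 0.02, than those replicates did with each other. These were replicate 3 of uncut larvae in regular medium (a mean r of 0.9366 against 0.986), replicate 3 of uncut larvae in 222 mM (0.9545 against 0.9803), replicate 1 at 3 h in regular medium (0.9542 against 0.9845) and replicate 1 at 24 h in 130 mM (0.96 against 0.9816). Results that rest on these groups are given with all libraries, and some are also given without these 4, an alternative chosen after the values were seen. Without them the 10 genes had 57 calls between media, 36 against uncut larvae and 19 between times, against 22, 10 and 6 with all libraries. Over all 20120 genes the calls rose too, in each of the 27 comparisons of 2 groups. In 130 mM against regular medium in uncut larvae they went from 529 to 5789. At 3 h against uncut in 130 mM they went from 7692 to 9824. The higher counts are therefore no result about these 10 genes. Each of the 4 groups then had 1 library fewer. Leaving out the libraries least like their replicates also narrows the spread within groups. CPM is the count scaled to library size with TMM factors. A value after "log2" is a log2 fold change and ± its standard error, with 3 libraries per group unless libraries are left out. Adjusted p is that of the edgeR quasi-likelihood test with Benjamini-Hochberg adjustment over the 20120 genes tested in that comparison. A gene rose or fell where the adjusted p lay under 0.05.

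Between genes, levels were compared in FPKM, which is scaled to transcript length. By median, the messages of the igfbp1 pair stood above those of the other genes followed. Single libraries differed, with igfbp1b at 6.995 FPKM and irs2b at 7.662 FPKM in replicate 1 at 24 h in 130 mM. The median over the 36 libraries was 65.0 FPKM for igfbp1a, with libraries between 20.0 and 149.9, and 44.9 FPKM for igfbp1b, with libraries between 7.0 and 226. irs2b came next at a median of 16.9 FPKM. The ligand igf2b followed at 9.50 and the binding protein igfbp2a at 8.0. Next in order were igf1ra at 5.51, igf2a at 4.58, igfbp3 at 4.24 and igf1rb at 2.44 FPKM. Lowest was igf1 at a median of 0.817 FPKM, where a library held between 16 and 205 counts, so its values carry the largest counting error of the 10. For the other 9 genes the lowest count of a library was 256 or more. The ranges of neighbours in this order overlapped for all 9 pairs of neighbours.

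**Figure D1:**
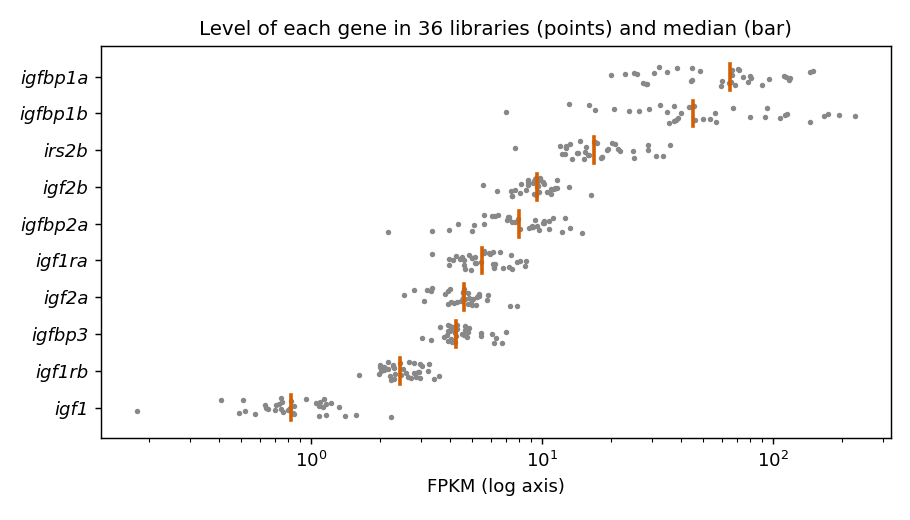
FPKM of each of the 10 genes in the 36 libraries (grey points) with the median (orange bar), on a log axis. The igfbp1 pair lies highest, with medians of 65.0 and 44.9 FPKM, and igf1 lowest at 0.817 FPKM.

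The genes lie apart on GRCz11. igf1 (ENSDARG00000094132) is on chromosome 4 from 17310143 to 17326717, igf2a (ENSDARG00000018643) on chromosome 7 from 48870496 to 48876480, and igf2b (ENSDARG00000033307) on chromosome 25 from 24039364 to 24046870. The pair igfbp1a (ENSDARG00000099351, chromosome 20, 6808774 to 6812688) and igfbp1b (ENSDARG00000038666, chromosome 2, 124433 to 127945) stems from the teleost genome duplication and lies on different chromosomes. igfbp3 (ENSDARG00000099144, chromosome 20, 6756247 to 6804237) is the neighbour of igfbp1a, on the opposite strand, with the facing 3′ ends 4536 bp apart, and igfbp2a (ENSDARG00000052470) is on chromosome 6 from 20921542 to 20952187. The receptor genes igf1ra (ENSDARG00000027423, chromosome 18, 20881462 to 21047580) and igf1rb (ENSDARG00000034434, chromosome 7, 15446229 to 15610129) are a second duplicated pair, and irs2b (ENSDARG00000075282) is on chromosome 9 from 8429239 to 8454060. None of the 10 spans overlaps another gene of the table except igf1ra, which overlaps the opposite-strand gene BX548061 at a mean of 0.02 FPKM.

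The first question was how these genes differed between media at each time, and it was put in 12 comparisons of 2 media. The binding proteins of the igfbp1 pair moved most: after amputation both were lower in glucose at 24 and 48 h than in regular medium. In regular medium, igfbp1a stood at 123, 144 and 177 CPM in uncut larvae, at 139, 90.8 and 86.8 CPM at 3 h, at 264, 197 and 247 CPM at 24 h, and at 164, 153 and 230.1 CPM at 48 h. In 130 mM it stood at 59.4, 57.6 and 56.8 CPM in uncut larvae, at 242, 168 and 141 CPM at 3 h, at 40.6, 54.8 and 49.2 CPM at 24 h, and at 55.8, 69.7 and 79.7 CPM at 48 h. In 222 mM the values were 148, 139 and 182 CPM in uncut larvae, 319, 356 and 113 CPM at 3 h, 151, 141 and 148 CPM at 24 h, and 79.0, 91.4 and 69.2 CPM at 48 h. All 130 mM libraries lay below all regular-medium libraries in uncut larvae and at 24 and 48 h, and above all of them at 3 h.

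In 130 mM against regular medium, igfbp1a fell in uncut larvae (log2 -1.35 ± 0.27, adjusted p = 0.0079), at 24 h (log2 -2.29 ± 0.28, adjusted p = 1.5e-05) and at 48 h (log2 -1.42 ± 0.27, adjusted p = 0.00065). The first of these calls was lost without replicate 3 of uncut 130 mM, at log2 -1.34. At 3 h the difference was log2 0.80 ± 0.27 with adjusted p = 0.058, and without the 4 libraries that stood apart it was 1.05 with adjusted p = 0.015. In 222 mM against regular medium, igfbp1a did not pass in uncut larvae, where the log2 difference had a 95% interval from -0.44 to 0.61. At 3 h it rose (log2 1.31 ± 0.27, adjusted p = 0.0011), although replicate 3 of 222 mM, at 113 CPM, lay below the highest regular-medium library. Without that replicate the value was 1.68, and without replicate 2 of 222 mM it was 1.03. At 48 h it fell (log2 -1.19 ± 0.27, adjusted p = 0.003). The fall at 24 h (log2 -0.69 ± 0.27, adjusted p = 0.049) had adjusted p = 0.08 in a fit of the 27 libraries of cut larvae, and it was called in 1 of 6 fits with a library left out, the fit without replicate 2 of regular medium, and the values of these fits lay between -0.80 and -0.60. Between the doses, igfbp1a was higher in 222 mM than in 130 mM in uncut larvae (log2 1.43 ± 0.27, adjusted p = 0.0018) and at 24 h (log2 1.61 ± 0.28, adjusted p = 0.00012), with no overlap of libraries. The level in uncut larvae was lowest in the lower dose, at 148 ± 27.4 CPM in regular medium, 57.9 ± 1.34 CPM in 130 mM and 156 ± 23.1 CPM in 222 mM (SD, n = 3 each).

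**Figure D2:**
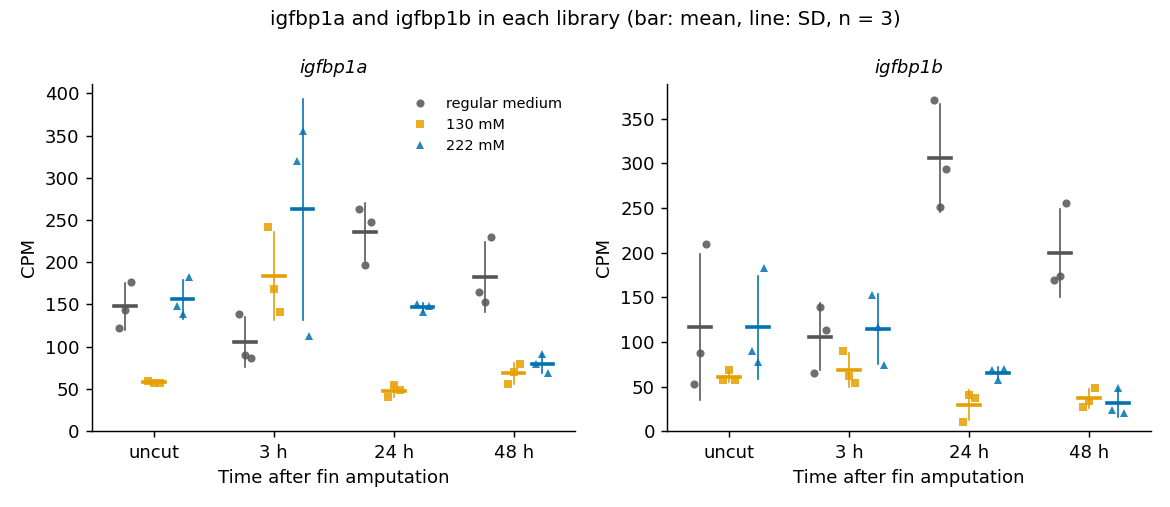
CPM of igfbp1a (left) and igfbp1b (right) in each library by time after amputation and medium, with group mean (bar) and SD (line, n = 3). At 24 h the regular-medium libraries of igfbp1b lie at 252 to 371 CPM, above the glucose libraries, which lie at 10.4 to 70.1 CPM.

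igfbp1b, the second igfbp1 gene, was called between media at 24 and 48 h. At 24 h it held 371, 252 and 294 CPM in regular medium, 10.4, 40.9 and 37.3 CPM in 130 mM and 68.8, 57.9 and 70.1 CPM in 222 mM, so that all 6 glucose libraries lay below all 3 in regular medium. At 48 h it held 169, 173 and 256 CPM in regular medium, 27.6, 34.4 and 48.9 CPM in 130 mM and 24.1, 48.6 and 20.6 CPM in 222 mM, again without overlap between either dose and regular medium. The falls were log2 -3.37 ± 0.51 (adjusted p = 0.00023) at 24 h and log2 -2.43 ± 0.49 (adjusted p = 0.0012) at 48 h in 130 mM against regular medium. In 222 mM against regular medium they were log2 -2.22 ± 0.48 (adjusted p = 0.00094) and log2 -2.68 ± 0.49 (adjusted p = 0.00053). Each of these 4 calls was kept in 6 of 6 fits with a library of either group left out. In uncut larvae igfbp1b was at 53.4, 87.3 and 210 CPM in regular medium, 57.5, 68.2 and 57.6 CPM in 130 mM and 89.8, 77.2 and 183 CPM in 222 mM. At 3 h it was at 65.7, 139 and 114 CPM in regular medium, 89.6, 62.2 and 53.7 CPM in 130 mM and 152, 117 and 74.3 CPM in 222 mM. The comparisons of media did not pass in uncut larvae or at 3 h, with adjusted p between 0.24 and 1. The groups overlapped in 5 of these 6 comparisons, and the highest uncut library in regular medium and in 222 mM was replicate 3, which stood apart in both groups.

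Insulin is a known repressor of igfbp1 transcription, and its message was followed in a list of 10 measured beta cell genes, 8 of them tested. The insulin gene ins was lower in 222 mM than in regular medium at 24 h (log2 -1.51 ± 0.27, adjusted p = 6.8e-05), as were both igfbp1 genes at that time. For igfbp1a that fall had adjusted p = 0.049, and 0.08 in the fit of cut larvae. In uncut larvae ins also fell in 130 mM (log2 -1.69 ± 0.27, adjusted p = 0.00097) and in 222 mM (log2 -1.14 ± 0.27, adjusted p = 0.0041) against regular medium, while igfbp1a fell in the lower dose and did not pass in the higher. At 24 h in 130 mM, where both igfbp1 genes fell most, ins did not pass against regular medium (log2 -0.63 ± 0.26, adjusted p = 0.14), and 0 of the 8 beta cell markers tested were called, with a list median of log2 0.18 beside 0.02 over all genes, of which 7.03% were called. At 3 h in 222 mM, where igfbp1a rose, ins fell (log2 -1.44 ± 0.27, adjusted p = 0.0003). At 48 h, where both igfbp1 genes fell in both doses, ins was at log2 0.02 ± 0.26 (adjusted p = 0.97) in 130 mM and fell in 222 mM (log2 -0.75 ± 0.27, adjusted p = 0.049). Of the 8 beta cell markers tested, 2 rose and 1 fell in 222 mM against regular medium at 24 h, with a list median of log2 0.23 beside 0.01 over all genes, of which 34.1% were called. The most that moved in 1 comparison were 4 rises at 24 h against 3 h in 130 mM, where 24.8% of all genes were called, among them nkx2.2a (log2 0.66 ± 0.19) and isl1a (log2 0.49 ± 0.15), 2 transcription factors of the islet. In 222 mM against 130 mM at 24 h, where igfbp1a was higher, ins was lower (log2 -0.88 ± 0.26, adjusted p = 0.015). At 3 h against uncut in 130 mM, where igfbp1a rose, ins rose (log2 1.27 ± 0.27, adjusted p = 0.00055). In 222 mM against 130 mM in uncut larvae ins did not pass. Nor did ins pass at 24 h against 3 h in regular medium or 130 mM, or at 48 h in 222 mM against uncut larvae or 24 h. An igfbp1 gene was called in each of these. What part ins has in the level of igfbp1 was not tested.

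The calls over the 10 genes were set against the share of all tested genes called in the same comparison. Most calls came from the binding proteins: of 38 calls in 270 tests of 2 groups, 13 were of igfbp1a, 6 of igfbp1b and 2 of igfbp2a. In uncut larvae, 1 of the 10 genes was called in 130 mM against regular medium, where 2.63% of all genes were called, 1 in 222 mM against regular medium (12.6% of all genes) and 2 in 222 mM against 130 mM (7.63%). At 3 h the counts were 0 in 130 mM against regular medium (9.5% of all genes), 4 in 222 mM against regular medium (23.9%) and 0 in 222 mM against 130 mM (12.8%). At 24 h they were 2 (7.03% of all genes), 3 (34.1%) and 3 (24.3%) in the same 3 comparisons, and at 48 h 4 (19.9%), 2 (16.5%) and 0 (15.8%). With 10 genes, counts of 2 to 4 beside backgrounds of 16.5% to 34.1% say nothing about the axis as a whole, so results are given gene by gene. Where the edgeR test called none of the 10 between media, 5 had an unadjusted p under 0.05 in 130 mM against regular medium at 3 h, 2 in 222 mM against 130 mM at 3 h and 0 in that comparison at 48 h, and DESeq2 called 2, 0 and 0. Over all 20120 genes, 5154, 5779 and 5945 had an unadjusted p under 0.05 in these 3 comparisons. For DESeq2, here and below, no count over all genes is given, so its counts of calls are no result about these 10 genes. Over these 12 comparisons of media, the median log2 change of the 10 genes was lowest at -0.44 in 130 mM against regular medium in uncut larvae, beside -0.02 over all genes, and highest at 0.34 in 130 mM against regular medium at 3 h, beside 0.00.

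**Figure D3:**
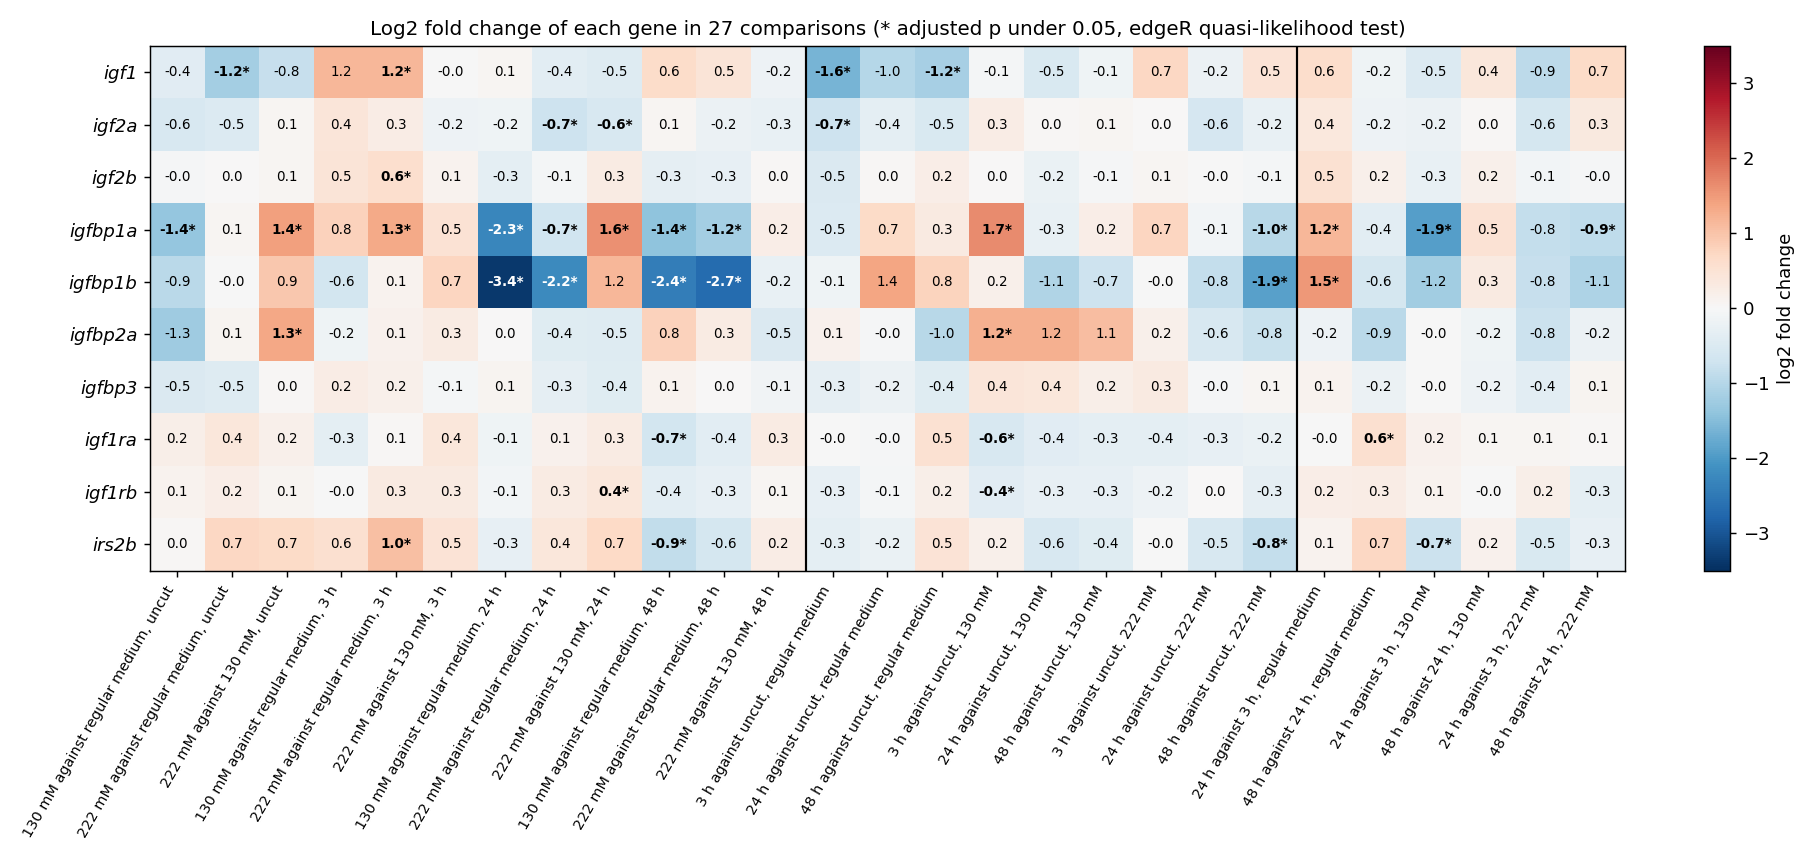
Log2 fold change of each gene (rows) in the 27 comparisons of 2 groups (columns), red for higher and blue for lower in the group named first, with an asterisk where the edgeR quasi-likelihood test gave an adjusted p under 0.05. Vertical lines separate the 12 glucose comparisons, the 9 against uncut larvae and the 6 between times. The 5 values farthest from 0 are the falls of igfbp1b at 24 and 48 h in both doses against regular medium and that of igfbp1a at 24 h in 130 mM, from -3.37 to -2.22.

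The second question was how the genes moved after amputation within each medium, first against uncut larvae. In 130 mM at 3 h, igfbp1a rose to 242, 168 and 141 CPM, against 59.4, 57.6 and 56.8 CPM in uncut larvae (log2 1.67 ± 0.28, adjusted p = 6.9e-05), with no overlap. It did not pass against uncut larvae at any time in regular medium. There the log2 difference was -0.48 ± 0.27 at 3 h (adjusted p = 0.23), 0.68 ± 0.27 at 24 h (adjusted p = 0.1) and 0.31 ± 0.27 at 48 h (adjusted p = 0.48). In 222 mM both igfbp1 genes fell at 48 h against uncut larvae, igfbp1a by log2 -0.97 ± 0.27 (adjusted p = 0.014) and igfbp1b by log2 -1.91 ± 0.48 (adjusted p = 0.0076). For igfbp1a this call was lost without replicate 3 of uncut 222 mM, at -0.84, and without replicate 3 of 48 h, at -0.88. For igfbp1b it was lost without replicate 3 of uncut 222 mM, at -1.42. In regular medium at 24 h igfbp1b was above all uncut libraries (log2 1.39 ± 0.47, adjusted p = 0.06). Without the 4 libraries that stood apart the difference was 2.12 with adjusted p = 0.00024, and at 48 h it was then 1.5 with adjusted p = 0.0023, against 0.77 ± 0.47 and adjusted p = 0.28 with all libraries.

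Against uncut larvae in regular medium, 2 of the 10 genes were called at 3 h, where 15.1% of all genes were called, 0 at 24 h (9.78%) and 1 at 48 h (14.5%). In 130 mM the counts were 4 at 3 h (38.2% of all genes), 0 at 24 h (2.67%) and 0 at 48 h (6.14%). In 222 mM they were 0 at 3 h (0.895% of all genes), 0 at 24 h (4.6%) and 3 at 48 h (17.2%). Where the edgeR test called none, those of the 10 genes with an unadjusted p under 0.05 numbered 3 at 24 h in regular medium, 4 and 1 at 24 and 48 h in 130 mM, and 1 and 2 at 3 and 24 h in 222 mM. Over all 20120 genes such genes numbered 5341, 4021, 4674, 2864 and 3776, in that order. Of the 10, DESeq2 called 1 at 24 h in regular medium, 1 at 24 h in 130 mM and 0 in the other 3.

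Between times after the cut, igfbp1a moved in opposite directions by medium. These comparisons take no level from uncut larvae, but the uncut libraries enter the spread that the fit estimates. In a fit of the 27 libraries of cut larvae, added after the values were seen, the 10 genes had 11 calls between times, against 6 with all libraries, and all 6 were among them. Calls over all genes rose too in regular medium, from 3718 to 4580 at 24 h against 3 h and from 1917 to 2901 at 48 h against 24 h. The igfbp1a calls given next had adjusted p of 0.0087 in regular medium and 0.00017 in 130 mM at 24 h, and 0.033 in 222 mM at 48 h, in that fit. From 3 h on, igfbp1a was higher at 24 h in regular medium (log2 1.16 ± 0.27, adjusted p = 0.0033) and lower at 24 h in 130 mM (log2 -1.93 ± 0.28, adjusted p = 2.6e-05), and both calls were kept in 6 of 6 fits with a library left out. In 222 mM the 24 h libraries held 151, 141 and 148 CPM, against 319, 356 and 113 CPM at 3 h (log2 -0.84 ± 0.27, adjusted p = 0.052). At 48 h in 222 mM igfbp1a fell below 24 h (log2 -0.88 ± 0.27, adjusted p = 0.018), a call lost without replicate 1 (value -0.88) or replicate 3 (value -0.78) of 48 h. igfbp1b was higher at 24 h than at 3 h in regular medium (log2 1.53 ± 0.47, adjusted p = 0.025), without overlap. That call held in 2 of 6 fits with a library left out and was lost without replicates 1 and 3 of either time, with values between 1.28 and 1.77. In 130 mM igfbp1b at 24 h lay below every 3 h library (log2 -1.21 ± 0.47, adjusted p = 0.061, and 0.042 in the fit of cut larvae), and in 222 mM it did not pass either (log2 -0.81 ± 0.47, adjusted p = 0.31).

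Of the 10 genes, 2 were called at 24 h against 3 h in regular medium (18.5% of all genes), 2 in 130 mM (24.8%) and 0 in 222 mM (7.82%). At 48 h against 24 h the counts were 1 in regular medium (9.53%), 0 in 130 mM (2.87%) and 1 in 222 mM (24.8%). In the pair of comparisons without a call by edgeR, 3 genes in 222 mM at 24 h and 0 in 130 mM at 48 h had an unadjusted p under 0.05, and DESeq2 called 2 and 0. Over all 20120 genes, 4695 and 3327 had an unadjusted p under 0.05 there.

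The difference between media in the step to 24 h was itself tested, a test chosen after the values were seen. For igfbp1a the change at 24 h against 3 h was more negative in 130 mM than in regular medium by log2 -3.09 ± 0.39 (adjusted p = 7.6e-05) and in 222 mM than in regular medium by log2 -2.00 ± 0.38 (adjusted p = 0.00234). For igfbp1b the differences were log2 -2.74 ± 0.67 (adjusted p = 0.0293) and log2 -2.33 ± 0.66 (adjusted p = 0.0381). igf2a also differed in this step in 222 mM against regular medium (log2 -0.99 ± 0.29, adjusted p = 0.0426). Thus 2 of the 10 genes were called for 130 mM against regular medium, beside 2.28% of all genes, and 3 for 222 mM against regular medium, beside 5.38%. For 222 mM against 130 mM edgeR called 0, beside 8.1% of all genes, with igfbp1a at log2 1.09 ± 0.38 (adjusted p = 0.0736).

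These step calls depended on single libraries for igfbp1b and igf2a. With each library of the 4 groups left out in turn, both igfbp1a calls were kept in 12 of 12 fits. The igfbp1b call for 130 mM was kept in 6 of 12, with values between -3.05 and -2.34, and was lost without replicate 2 or 3 of 3 h or replicate 1 or 3 of 24 h in regular medium and without replicate 1 or 2 of 3 h in 130 mM. For 222 mM the igfbp1b call was kept in 2 of 12, without replicate 2 of 3 h in regular medium and without replicate 3 of 3 h in 222 mM, with values between -2.57 and -2.07. The igf2a call was kept in 2 of 12, without replicate 1 of 3 h in regular medium and without replicate 3 of 3 h in 222 mM, with values between -1.14 and -0.83. Without the 4 libraries that stood apart, 5 of the 10 genes were called for 130 mM against regular medium (17.9% of all genes), 8 for 222 mM against regular medium (18.8%) and 2 for 222 mM against 130 mM (22.8%). In those fits igfbp1a was at log2 -3.23 for 130 mM and -2.25 for 222 mM against regular medium, igfbp1b at -2.08 in both, and igf2a at -1.14 for 222 mM, all 5 still called. In the fit of cut larvae these 5 were also called, with adjusted p between 0.00101 and 0.04, as was igf2b for 130 mM against regular medium (log2 -0.79, adjusted p = 0.0336), beside 3.91% of all genes for 130 mM and 8.16% for 222 mM. Between the doses it called 0 of the 10, beside 11.7%. With the libraries that stood apart left out, the 2 genes called between the doses were igfbp2a (log2 -0.92, adjusted p = 0.00742) and igf2a (log2 -0.70, adjusted p = 0.00915).

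Whether the whole course after amputation differed between media was asked with an F test of the 3 responses against uncut larvae. It called igfbp1a (adjusted p = 9.5e-05), igfbp1b (0.014), igfbp2a (0.039) and irs2b (0.042) for 130 mM against regular medium, which is 4 of the 10 beside 17.9% of all genes. For 222 mM against regular medium it called igfbp1a (adjusted p = 0.00054), igfbp1b (0.0063), irs2b (0.015) and igf1 (0.016), 4 of the 10 beside 15.3%. For 222 mM against 130 mM it called igfbp1a (adjusted p = 0.017) and igfbp2a (0.028), 2 of the 10 beside 24.4%. igfbp1a was called in all 3 tests and igfbp1b in both tests against regular medium, in 24 of 24 fits with a library left out each. With the 3 cut times alone, where the uncut groups enter only the spread, igfbp1a and igfbp1b kept those calls, with adjusted p between 5.9e-05 and 0.024. irs2b also kept its calls there, with adjusted p = 0.034 for 130 mM and 0.014 for 222 mM against regular medium. igfbp2a then had adjusted p = 0.35 for 130 mM against regular medium and 0.4 for 222 mM against 130 mM, and igf1 had 0.13 for 222 mM against regular medium. In the fit of the 27 libraries of cut larvae igfbp1a had adjusted p = 0.0003, 0.0012 and 0.041 in the 3 tests, in the order above, and igfbp1b 0.013 and 0.0074 against regular medium. There igfbp2a had 0.036 for 130 mM against regular medium and 0.057 for 222 mM against 130 mM, and igf1 had 0.12 for 222 mM against regular medium. Without the 4 libraries that stood apart, all 10 genes were called in both tests against regular medium and 3 in that of 222 mM against 130 mM, where 11179, 8724 and 9235 of the 20120 genes were called. Leaving out replicate 3 of uncut larvae in regular medium alone gave 19 calls over the 3 tests, against 10 with all libraries. No count over all genes is given for that fit.

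The pair did not hold constant proportions. igfbp1b made up between 25.9% and 67.6% of the FPKM of the pair in a library, on average 63.7 ± 1.95% in regular medium, 42.4 ± 14.3% in 130 mM and 37.8 ± 1.67% in 222 mM at 24 h (SD, n = 3 each). Over the 36 libraries the log2 CPM of igfbp1a and igfbp1b went together with r = 0.766, the highest of the 45 pairs among the 10 genes. igf1ra and igf1rb came close at 0.756. Within groups the r of igfbp1a and igfbp1b was 0.55, below that of other pairs such as igf1ra and igf1rb at 0.712. This is a description over libraries that share their groups and carries no test. In the order of the 12 groups by mean CPM, igfbp1a was highest at 3 h in 222 mM (263 ± 131) and lowest at 24 h in 130 mM (48.2 ± 7.14), 5.45 times apart. Of its 11 neighbouring pairs of groups in that order, 2 did not touch within 1 SD of the means. igfbp1b was highest at 24 h in regular medium (306 ± 60.6) and lowest at 24 h in 130 mM (29.5 ± 16.7), 10.35 times apart, with 1 of 11 neighbours separate.

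Summed over the 4 binding proteins and over the 3 ligands, the FPKM of binding proteins exceeded that of ligands in every library, by 3.79 to 25.8 times. The igfbp1 pair made up a median of 90.1% of the sum of these 4 binding proteins. At 24 h the ratio of binding proteins to ligands averaged 20.3 ± 5.17 in regular medium, 4.23 ± 0.39 in 130 mM and 9.14 ± 1.03 in 222 mM, and at 48 h 13.3 ± 2.23 in regular medium, 4.59 ± 0.57 in 130 mM and 4.72 ± 0.95 in 222 mM (SD, n = 3 each). In uncut larvae it was 8.76 ± 2.01 in regular medium, 4.92 ± 0.27 in 130 mM and 10.6 ± 2.52 in 222 mM. The ligand sum itself stayed between 9.21 and 22.6 FPKM in all libraries, against 41.4 to 357 FPKM for the binding proteins. Other measured binding protein genes, such as igfbp2b, igfbp5a and igfbp7, and the ligand gene igf3 are not in these sums. The ratios therefore hold for the genes summed, not for all binding proteins and ligands. These sums describe message, not protein, and were not tested.

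igfbp2a encodes another circulating binding protein, known from liver in zebrafish. It was lowest in uncut larvae in 130 mM. There it held 10.3, 6.69 and 8.09 CPM, while uncut larvae in regular medium held 30.2, 25.2 and 4.20 CPM and those in 222 mM held 22.1, 16.8 and 24.6 CPM. It was higher in 222 mM than in 130 mM in uncut larvae (log2 1.34 ± 0.38, adjusted p = 0.027) and rose at 3 h in 130 mM to 21.9, 21.2 and 15.95 CPM, against the uncut values above (log2 1.24 ± 0.37, adjusted p = 0.011). In both comparisons the groups did not overlap. The first call held in 2 of 6 fits with a library left out, without replicate 2 of 222 mM and without replicate 1 of 130 mM, with values between 1.21 and 1.52. The second was lost without replicate 2 of uncut 130 mM, at 1.1. In 130 mM against regular medium in uncut larvae the value was -1.25 and did not pass. Without the 4 libraries that stood apart, which keeps 2 in uncut regular medium, it was -1.73 with adjusted p = 8e-08. The regular-medium library left out there, at 4.20 CPM, lay below all 130 mM libraries. Over all genes the calls in that comparison rose from 529 to 5789. In the fit of the 27 libraries of cut larvae igfbp2a was called in 130 mM against regular medium at 48 h (log2 0.82, adjusted p = 0.0051). It was also called at 48 h against 24 h in regular medium (log2 -0.94, adjusted p = 0.0036). Over all genes 24.7% and 14.4% were called there. With all libraries the adjusted p was 0.13 and 0.11.

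The 17 hepatocyte markers, such as fabp10a, apoa2, tfa and the fibrinogen genes, were all detected, and their summed FPKM moved with igfbp2a. In uncut larvae the sum was 3865, 3216 and 989 FPKM in regular medium, 1719.9, 1054 and 1182 FPKM in 130 mM, and 2115, 2145 and 3343 FPKM in 222 mM. Replicate 3 of uncut larvae in regular medium, with the lowest marker sum of that group, was also the library with the lowest igfbp2a of the series. In 222 mM against 130 mM in uncut larvae 9 of the 17 markers rose and 0 fell, with a list median of log2 1.29 beside 0.00 over all genes, and the ferroxidase cp (log2 2.29 ± 0.40) and the fibrinogen gene fgg (log2 1.94 ± 0.36) led. At 3 h against uncut in 130 mM 8 rose and 0 fell, with a median of log2 0.86 beside 0.01. At 24 h against uncut in 130 mM 11 rose and 0 fell, with a median of log2 1.34 beside 0.03, while igfbp2a at 14.8, 21.5 and 22.7 CPM did not pass (log2 1.24 ± 0.37, adjusted p = 0.072). Over all genes 7.63%, 38.2% and 2.67% were called in these 3 comparisons. Without the 4 libraries that stood apart the igfbp2a value at 24 h against uncut in 130 mM was 1.40 with adjusted p = 5.5e-06. By the likeness of log2 CPM over the 36 libraries, the genes nearest to igfbp2a were apoa2 (r = 0.952) and ambp (r = 0.921), both in the hepatocyte list, and habp2 (r = 0.912), which encodes a plasma protease. These correlations are descriptions over libraries that share their groups and depth. In whole larvae fewer hepatocytes and less RNA per hepatocyte cannot be told apart, and the part of liver content in the igfbp2a results was not tested.

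**Figure D4:**
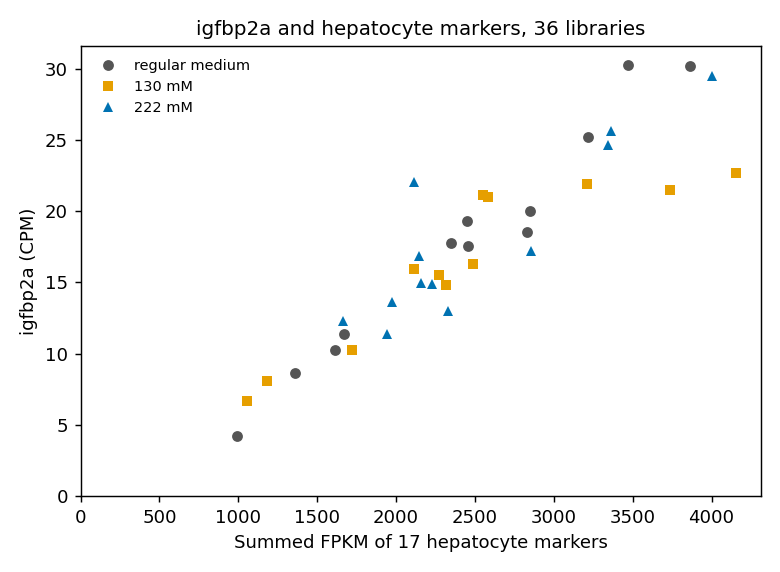
CPM of igfbp2a against the summed FPKM of 17 hepatocyte markers in the 36 libraries, coloured by medium. Libraries with a low marker sum, down to 989 FPKM, have low igfbp2a, down to 4.20 CPM.

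The igfbp1 genes did not have hepatocyte markers of the list among the 3 genes nearest to each. Nearest to igfbp1b were tdo2b (r = 0.920), which encodes the liver enzyme tryptophan dioxygenase, fbxo32 (r = 0.876), the ubiquitin ligase atrogin, known in mammals as a FOXO target in muscle, and pla2g15 (r = 0.867), a lysosomal phospholipase. Nearest to igfbp1a were cdab (r = 0.855), a cytidine deaminase, ndel1b (r = 0.809) and the deubiquitinase usp2a (r = 0.803). At 24 h the hepatocyte sum lay at 2451 to 2852 FPKM in regular medium, 2314 to 4152 FPKM in 130 mM and 2158 to 2329 FPKM in 222 mM. In 130 mM against regular medium at 24 h the 17 markers had a median of log2 0.16, beside 0.02 over all genes and falls of log2 -2.29 for igfbp1a and -3.37 for igfbp1b. In 222 mM against regular medium at 24 h 1 rose and 5 fell, with a median of log2 -0.21 beside 0.01 over all genes, of which 34.1% were called. In some other comparisons the sum moved as igfbp1a did. The sum was 1054 to 1720 FPKM in uncut larvae in 130 mM. It was higher in uncut 222 mM (2115 to 3343) and at 3 h in 130 mM (2111 to 3208). At 48 h in 222 mM it was 1666 to 1973, below uncut 222 mM. In others it did not. At 48 h in 130 mM, where both igfbp1 genes were below regular medium, the sum was above it, at 2272.5 to 2582 against 1356 to 1673. The part of liver content in the igfbp1 results was not tested.

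igfbp3, the gene of a binding protein that carries ligands in larger complexes in mammals, was not called in any of the 27 comparisons of 2 groups by edgeR, nor by DESeq2, and had an unadjusted p under 0.05 in 2. Its group means ran from 14.7 ± 0.92 CPM at 24 h in 222 mM to 20.9 ± 5.33 CPM in uncut larvae in regular medium. Replicate 1 at 3 h in regular medium, at 26.05 CPM against 11.02 and 13 in the other 2, and replicate 3 of uncut larvae in regular medium, at 14.8 CPM against 22.7 and 24.97, were both among the 4 libraries that stood apart. Leaving out these 4 keeps 2 libraries each in uncut larvae and at 3 h in regular medium, without the replicates just named. The 3 h level in regular medium then fell below uncut (log2 -0.99, adjusted p = 3.8e-05). Likewise 130 mM (log2 0.72, adjusted p = 0.00028) and 222 mM (log2 0.65, adjusted p = 0.00075) were above regular medium at 3 h. With all libraries these values were -0.32, 0.25 and 0.18. igfbp3 neighbours igfbp1a on chromosome 20. Over the group means it ranged 1.42 times, against 5.45 times for igfbp1a, and without the 4 libraries that stood apart 1.99 times, against 5.05 times.

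Among igf1, igf2a and igf2b, igf2b was the most abundant, with a median of 63.2% of their summed FPKM in a library. Both igf1 and igf2a were highest in uncut larvae in regular medium. igf1, the growth-hormone-driven ligand of the liver, held 3.19, 2.07 and 1.51 CPM in uncut larvae in regular medium and 1.23, 0.26 and 0.71 CPM at 3 h, 1.26, 1.02 and 1.08 CPM at 24 h and 0.94, 0.92 and 1.15 CPM at 48 h in that medium. All cut libraries in regular medium were below all uncut ones. The fall at 3 h was log2 -1.62 ± 0.39 (adjusted p = 0.0057) and was kept in 6 of 6 fits with a library left out, with values between -2.20 and -1.22. At 48 h the fall was log2 -1.17 ± 0.38 (adjusted p = 0.036), a call that held only without replicate 3 of uncut larvae, with values between -1.39 and -0.84 over the 6 fits. At 24 h the difference was log2 -1.01 ± 0.38 (adjusted p = 0.084).

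In 222 mM, igf1 was at 0.93, 1.24 and 0.80 CPM in uncut larvae, below every uncut library in regular medium (log2 -1.19 ± 0.38, adjusted p = 0.038). At 3 h it was at 1.89, 1.82 and 1.22 CPM in 222 mM, against 1.23, 0.26 and 0.71 CPM in regular medium (log2 1.16 ± 0.39, adjusted p = 0.029), where the lowest 222 mM library lay just under the highest in regular medium. The uncut call held in 2 of 6 fits, without replicate 3 of regular medium and without replicate 2 of 222 mM, with values between -1.41 and -0.85. The 3 h call held in 2 of 6, without replicate 1 of regular medium, at 1.74, and without replicate 3 of 222 mM. It was at its lowest, 0.76, without replicate 2 of regular medium. In 130 mM igf1 lay between 0.94 and 2.29 CPM over the 12 libraries. At 3 h it held 2.02, 1.68 and 1.24 CPM in 130 mM, above the 3 libraries in regular medium, and did not pass (log2 1.16 ± 0.39, adjusted p = 0.054). Without the libraries that stood apart the value was 1.74 with adjusted p = 0.0015.

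igf2a, a duplicate of the igf2 gene, held 18.9, 18.0 and 12.1 CPM in uncut larvae in regular medium. At 3 h in that medium it held 11.8, 7.53 and 10.3 CPM, all below the uncut libraries (log2 -0.73 ± 0.21, adjusted p = 0.017). The call was lost without replicate 1 or 2 of uncut larvae or replicate 2 of 3 h, with values over the 6 fits between -0.90 and -0.57, and was -1.05 with adjusted p = 2.7e-05 without the libraries that stood apart. Without these, igf2a in uncut larvae was also lower in 130 mM than in regular medium (log2 -0.73, adjusted p = 0.00032), against -0.55 and adjusted p = 0.15 with all libraries. At 24 h igf2a fell to 8.30, 7.90 and 6.96 CPM in 222 mM, against 11.9, 14.1 and 12.4 CPM in regular medium (log2 -0.73 ± 0.21, adjusted p = 0.0073), with no overlap and a call in 6 of 6 fits. Against 130 mM at that time, with 6.09, 14.7 and 13.6 CPM, the fall was log2 -0.57 ± 0.21 (adjusted p = 0.046). The low 130 mM library is replicate 1, which stood apart. Without it the value was -0.87, and the call was lost in the other 5 fits, where the value went to -0.34 without replicate 2 of 130 mM.

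igf2b, the ligand with the highest message, was the steadiest of the 3: its group means lay between 28.5 ± 0.40 CPM, at 3 h in regular medium, and 46.8 ± 3.06 CPM, at 48 h in regular medium, 1.64 times apart. At 3 h it held 42.5, 43.8 and 41.2 CPM in 222 mM, against 28.1, 28.9 and 28.5 CPM in regular medium (log2 0.58 ± 0.20, adjusted p = 0.031). The libraries did not overlap, yet the call held in only 1 of 6 fits with a library left out, without replicate 3 of 222 mM, while the value stayed between 0.56 and 0.60. In 130 mM igf2b was also above all regular-medium libraries at 3 h, at 39.6, 39.0 and 38.7 CPM (log2 0.46, not called with all libraries). In the fit of the 27 libraries of cut larvae, added after the values were seen, both differences at 3 h were called. The adjusted p was 0.0056 in 222 mM and 0.048 in 130 mM, beside 28.1% and 12.9% of all genes called. In uncut larvae of regular medium, replicate 3 held 61.5 CPM against 29.3 and 29.7 in the other 2. Without the libraries that stood apart, igf2b at 48 h in regular medium was above uncut by log2 0.67 (adjusted p = 2.3e-05) and at 24 h by 0.49 (adjusted p = 0.0014), against 0.22 and 0.04 with all libraries.

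**Figure D5:**
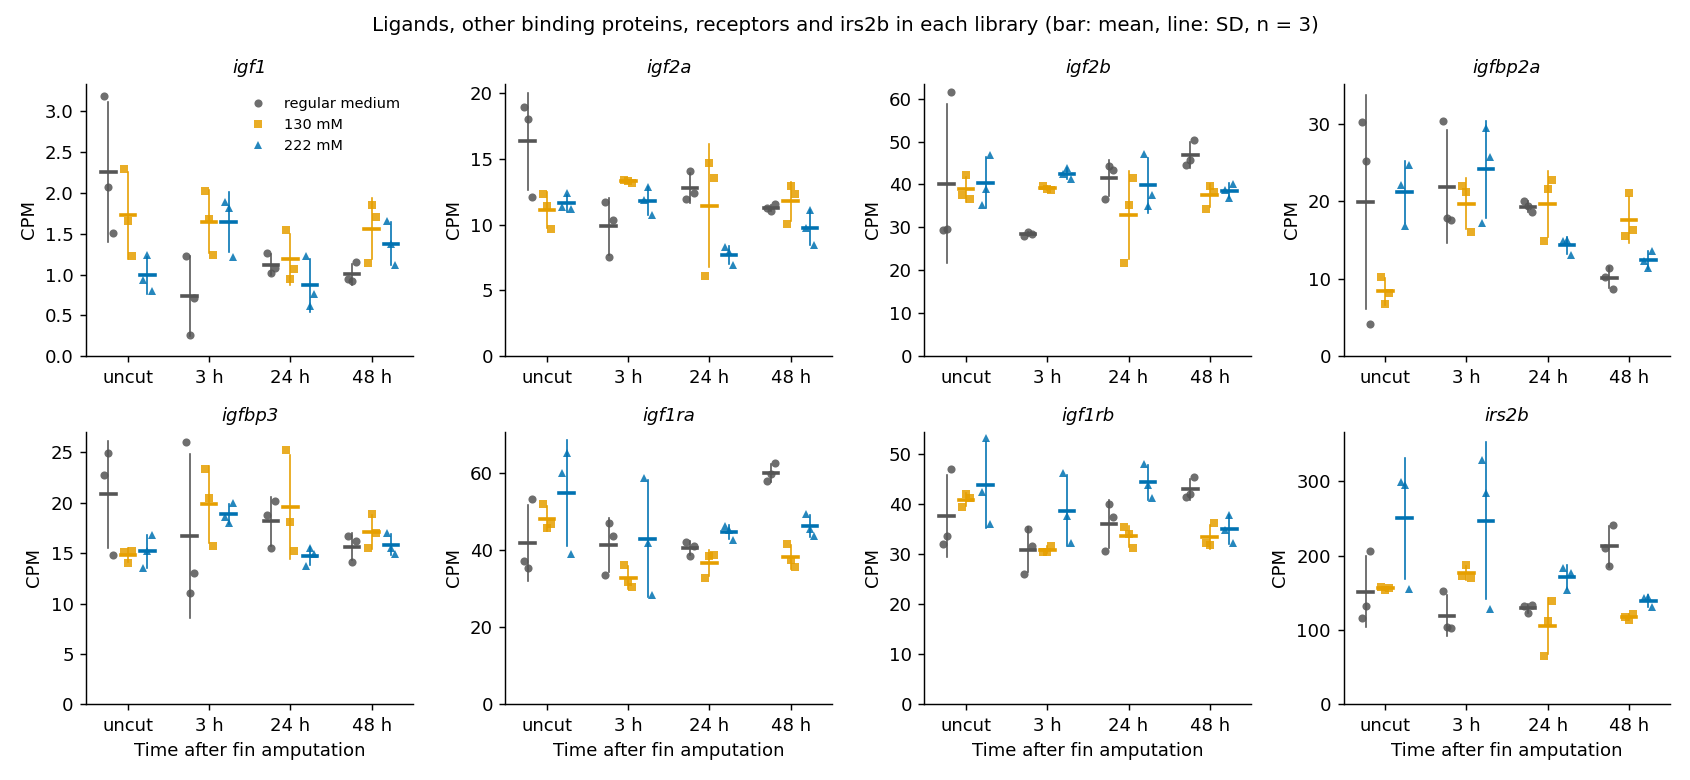
CPM of the 3 ligand genes, igfbp2a, igfbp3, the 2 receptor genes and irs2b in each library by time after amputation and medium, with group mean (bar) and SD (line, n = 3). irs2b at 3 h lies at 285 and 328 CPM in 2 libraries of 222 mM and at 128 CPM in replicate 3, against 102 to 152 CPM in regular medium.

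Over the group means, igf1ra moved 1.83 times and igf1rb 1.44 times, against 5.45 times for igfbp1a, 10.35 for igfbp1b, 2.89 for igfbp2a and 1.42 for igfbp3. With the 4 libraries that stood apart left out, the ranges were 1.91 times for igf1ra, 1.55 for igf1rb, 5.05 for igfbp1a, 9.82 for igfbp1b, 3.32 for igfbp2a and 1.99 for igfbp3. With all libraries no call of a receptor gene reached a fold change of 2. igf1ra was highest at 48 h in regular medium, with 58.0, 59.96 and 62.6 CPM. At that time it held 41.7, 37.6 and 35.6 CPM in 130 mM, all below regular medium (log2 -0.65 ± 0.18, adjusted p = 0.012), a call lost without replicate 3 of 130 mM, at -0.60. Against 24 h in regular medium, at 42.2, 38.6 and 41.1 CPM, the rise at 48 h (log2 0.57 ± 0.18, adjusted p = 0.046) was lost in all 6 fits with a library left out, with values between 0.53 and 0.60. At 3 h in 130 mM igf1ra fell to 36.3, 31.7 and 30.6 CPM, against 51.9, 45.8 and 46.9 CPM in uncut larvae (log2 -0.55 ± 0.18, adjusted p = 0.017). That call was lost without replicate 1 of uncut larvae or replicate 2 or 3 of 3 h, with values between -0.63 and -0.50. Without the 4 libraries that stood apart, igf1ra was higher in 222 mM than in regular medium in uncut larvae (log2 0.79, adjusted p = 0.00071), against 0.39 and adjusted p = 0.17 with all libraries, and higher at 48 h than in uncut larvae in regular medium (log2 0.73, adjusted p = 0.00045), against 0.52 and adjusted p = 0.051.

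igf1rb fell in the same comparison, to 30.5, 30.5 and 31.7 CPM at 3 h in 130 mM, against 39.4, 42.0 and 41.1 CPM in uncut larvae (log2 -0.40 ± 0.14, adjusted p = 0.028). In 222 mM at 24 h it was higher, at 48.1, 43.9 and 41.1 CPM, against 35.4, 34.1 and 31.2 CPM in 130 mM (log2 0.40 ± 0.14, adjusted p = 0.041). Each of these calls held in 1 of 6 fits, without replicate 1 of uncut larvae and without replicate 1 of 130 mM, with values between -0.43 and -0.38 and between 0.34 and 0.45. The 2 receptor genes went together over the libraries with r = 0.76. The gene nearest to igf1ra was the insulin receptor gene insrb (r = 0.904), followed by dock3 (r = 0.864) and the vitamin D receptor gene vdrb (r = 0.852). Nearest to igf1rb were caskin1 (r = 0.882), kif5ab (r = 0.865) and p4htm (r = 0.857), of which caskin1 and kif5ab are known from neurons.

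irs2b, the docking protein gene, was higher in 222 mM than in regular medium at 3 h, with 328, 285 and 128 CPM, against 152, 104 and 102 CPM (log2 1.05 ± 0.27, adjusted p = 0.0057). Replicate 3 of 222 mM overlapped with regular medium, and it is the library in which igfbp1a was also low. The call was lost without replicate 1 of 222 mM, at 0.79, and was highest at 1.36 without replicate 3 of 222 mM. In uncut larvae in 222 mM irs2b held 299, 295 and 155 CPM, against 116, 132 and 206 CPM in regular medium, which did not pass (log2 0.72 ± 0.27, adjusted p = 0.073). Replicate 3 stood apart in both groups, and without the 4 such libraries the difference was 1.26 with adjusted p = 0.00028. Without them irs2b was also higher in 130 mM than in regular medium at 3 h (log2 0.78, adjusted p = 0.0075), against 0.57 and adjusted p = 0.18 with all libraries. At 48 h irs2b fell in 130 mM to 117, 114 and 121 CPM, against 210.4, 186 and 241 CPM in regular medium (log2 -0.85 ± 0.27, adjusted p = 0.024), and in 222 mM to 143, 145 and 130.2 CPM, against the uncut values (log2 -0.84 ± 0.27, adjusted p = 0.029). The first of these calls held in 1 of 6 fits, without replicate 2 of regular medium, and the second in 1 of 6, without replicate 3 of uncut larvae, with values between -0.94 and -0.75 and between -1.09 and -0.69. In 130 mM at 24 h against 3 h it fell by log2 -0.75 ± 0.27 (adjusted p = 0.041), but replicate 1 of 24 h, at 64.7 CPM against 113 and 138, stood apart, and the call held only without replicate 3 of 24 h. Without all 4 libraries that stood apart the value was -0.49 with adjusted p = 0.072. The genes nearest to irs2b were lpin1 (r = 0.904), which encodes a phosphatidate phosphatase, arrdc3a (r = 0.883) and mknk2b (r = 0.861).

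For the ligands and igfbp3, the r of the nearest gene was lower than for each of the other genes followed. The gene nearest to igf2b, adma, is in the list of hypoxia-responsive genes counted below. Nearest to igf2b were adma, which encodes adrenomedullin (r = 0.831), klf15 (r = 0.768) and palld (r = 0.755), nearest to igfbp3 hnrnpc (r = 0.763), slc10a2 (r = 0.751) and crtap (r = 0.718), nearest to igf2a diabloa (r = 0.688), gadd45ab (r = 0.672) and pla2g12b (r = 0.669), and nearest to igf1 ctdspl2b (r = 0.679), fam171a2a (r = 0.667) and plk2a (r = 0.653).

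Around the 10 genes, the growth hormone side of the axis was counted as 14 measured genes, 12 of them tested. Growth hormone itself, gh1, was higher in 222 mM than in both other media in uncut larvae and at 3 and 24 h, although the call against regular medium in uncut larvae (log2 1.14 ± 0.38, adjusted p = 0.047) held in 3 of 6 fits with a library left out and its value went down to 0.195 there. At 24 h it averaged 23.2 CPM in 222 mM, against 10.02 CPM in regular medium (log2 1.21 ± 0.38, adjusted p = 0.015), and against 6.32 CPM in 130 mM (log2 1.88 ± 0.39, adjusted p = 0.00089). It was the only gene of this list called in either comparison, and the list medians were log2 0.02 and 0.12, beside 0.01 and -0.01 over all genes (34.1% and 24.3% called). The receptor gene ghrb fell at 48 h in 130 mM (log2 -1.19 ± 0.22, adjusted p = 0.00046) and in 222 mM (log2 -1.16 ± 0.22, adjusted p = 0.00056) against regular medium, and so did stat5a, a transcription factor below the receptor, in 130 mM (log2 -1.36 ± 0.22). In 130 mM at 48 h these were 2 falls and 0 rises among the 12, with a median of log2 -0.38 beside -0.01 over all genes (19.9% called), while igf1 was at log2 0.64 ± 0.38 (adjusted p = 0.24). At 3 h in 130 mM against uncut larvae, 4 rose and 0 fell, with socs2 (log2 0.82 ± 0.25), a feedback inhibitor of the receptor, among them, and a median of log2 0.19 beside 0.01 over all genes (38.2% called).

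Of 16 other binding proteins and their regulators, 13 were tested. These include proteases that cleave binding proteins, such as pappaa, pappa2 and htra1b, and stanniocalcins, known in mammals to inhibit pregnancy-associated plasma protein A. In 222 mM against regular medium in uncut larvae 3 rose and 1 fell, with a median of log2 0.06 beside -0.01 over all genes (12.6% called). There htra1b (log2 0.75 ± 0.12, adjusted p = 1e-04), stc2b (log2 1.52 ± 0.31, adjusted p = 0.0012) and pappaa (log2 0.80 ± 0.18, adjusted p = 0.0037) rose and stc1l (log2 -2.76 ± 0.51, adjusted p = 0.00059) fell. stc1l also fell in 130 mM in uncut larvae (log2 -2.69 ± 0.51, adjusted p = 0.0047), where igfbp5a rose (log2 1.03 ± 0.21, adjusted p = 0.0073). At 24 h igfbp7 fell in 222 mM against regular medium (log2 -1.31 ± 0.17, adjusted p = 1.3e-06), and at 48 h in 130 mM against regular medium igfbp5a (log2 1.07 ± 0.21), pappa2 (log2 0.69 ± 0.16) and igfbp2b (log2 1.19 ± 0.31) rose. In that comparison, where igfbp1a and igfbp1b fell, 3 of the 13 rose and 1 fell, with a median of log2 0.17 beside -0.01 over all genes (19.9% called).

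Of 11 other receptors and docking proteins, 10 were tested. irs2a, the paralog of irs2b, rose in 222 mM against regular medium at 3 h, as irs2b did, to 112 CPM on average against 57.2 CPM (log2 0.98 ± 0.25, adjusted p = 0.0064). At 48 h it fell in 130 mM against regular medium (log2 -0.83 ± 0.25, adjusted p = 0.021), a call kept in 2 of 6 fits. In 130 mM at 3 h against uncut larvae, where igf1ra and igf1rb fell, both insulin receptor genes fell too, insra by log2 -0.83 ± 0.15 (adjusted p = 0.00012) and insrb by log2 -0.60 ± 0.16 (adjusted p = 0.0046), and grb10a, whose product is known to inhibit these receptors, rose (log2 0.56 ± 0.12). In all 2 of the 10 rose and 4 fell there, with a median of log2 -0.12 beside 0.01 over all genes (38.2% called).

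Below the receptors, 41 of 42 genes of PI3K, AKT, FOXO and mTOR signalling were tested. At 48 h against regular medium 1 rose and 10 fell in 130 mM, with a median of log2 -0.23 beside -0.01 over all genes (19.9% called). In 222 mM 3 rose and 10 fell, with a median of log2 -0.17 beside 0.00 (16.5% of all genes called). The falls included sesn1, a sestrin that restrains mTOR, at log2 -1.38 ± 0.33 (adjusted p = 0.0043) in 130 mM and log2 -1.98 ± 0.33 (adjusted p = 0.0002) in 222 mM, the FOXO gene foxo1a (log2 -0.84 ± 0.18, adjusted p = 0.0019) in 130 mM, and eif4ebp3l (log2 -1.49 ± 0.30, adjusted p = 0.0011), a repressor of translation, in 222 mM. sesn1 also fell at 24 h in 130 mM (log2 -1.34 ± 0.33, adjusted p = 0.013). The comparison with most calls was 3 h against uncut in 130 mM, with 10 rises and 9 falls and a median of log2 -0.05 beside 0.01. There sesn2 (log2 1.68 ± 0.22), rps6kb1a (log2 1.25 ± 0.20) and foxo1b (log2 1.91 ± 0.37) rose. Over all genes 38.2% were called in that comparison.

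Lists of conditions known to act on igfbp1 were counted in 8 of the 13 comparisons in which at least 1 gene of the pair moved, chosen after the values were seen. Left out were 130 mM against regular medium in uncut larvae, 222 mM against 130 mM in uncut larvae and at 24 h, 222 mM against regular medium at 3 h, and 48 h against 24 h in 222 mM. How far the lists move with igfbp1 over all 13 can therefore not be read from these counts. Of 8 glucocorticoid-responsive genes, 4 rose and 0 fell at 3 h against uncut in 130 mM, where igfbp1a rose and 38.2% of all genes were called, with a median of log2 1.18 beside 0.01. They included sgk1 (log2 1.5 ± 0.36) and fkbp5 (log2 1.76 ± 0.58). At 48 h against uncut in 222 mM, where both igfbp1 genes fell, 0 rose and 4 fell, with a median of log2 -1.05 beside -0.01 (17.2% of all genes called), among them fkbp5 (log2 -3.42 ± 0.62, adjusted p = 0.00054) and the gluconeogenic pck1 (log2 -2.25 ± 0.30, adjusted p = 9.1e-06). Of 11 hypoxia-responsive genes, 6 rose and 2 fell at 3 h against uncut in 130 mM (38.2% of all genes called), with a median of log2 0.37 beside 0.01. In 130 mM against regular medium at 24 h, where both igfbp1 genes fell, 1 rose and 0 fell among these 11 (7.03% of all genes called), with a median of log2 0.04, and the median of the 8 glucocorticoid-responsive genes was log2 -0.003, beside 0.02 over all genes. Of 9 amino acid response genes, 7 rose and 0 fell at 3 h against uncut in 130 mM (38.2% of all genes called), with a median of log2 0.85 beside 0.01, led by asns (log2 2.12 ± 0.28) and psat1 (log2 1.49 ± 0.22), which make asparagine and serine. At 24 h against 3 h in 130 mM 0 rose and 7 fell, with a median of log2 -1.30 beside 0.02 (24.8% of all genes called), where igfbp1a fell as well. In 222 mM against regular medium at 24 h, however, 4 rose and 0 fell (34.1% of all genes called), asns by log2 1.99 ± 0.28. There igfbp1b fell, and igfbp1a fell with adjusted p = 0.049, a call not made in the fit of cut larvae.

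In the rest of these 8 comparisons the lists moved as follows. At 48 h against regular medium, where both igfbp1 genes fell, 2 of the 8 glucocorticoid-responsive genes fell and 0 rose in each dose, with medians of log2 -0.42 in 130 mM and -0.48 in 222 mM. At 24 h against 3 h in regular medium, where both igfbp1 genes rose, 1 of these 8 rose and 1 fell, with a median of log2 -0.49. In that step in 130 mM, where igfbp1a fell, 1 rose and 4 fell (median log2 -1.14), and in 222 mM against regular medium at 24 h 2 rose and 2 fell (median log2 0.28). Of the 11 hypoxia-responsive genes, 2 rose and 3 fell at 48 h in 130 mM and 1 rose and 1 fell in 222 mM, while 2 rose and 1 fell at 24 h against 3 h in regular medium and 2 rose and 5 fell in 130 mM. At 24 h in 222 mM against regular medium 1 of the 11 rose and 0 fell, and at 48 h against uncut in 222 mM 1 rose and 1 fell. The medians of the hypoxia list in these 6 comparisons lay between log2 -0.17 and 0.10. Of the 9 amino acid response genes, 0 rose and 2 fell at 24 h in 130 mM against regular medium, 1 rose and 3 fell at 48 h in 130 mM and 1 rose and 1 fell at 48 h in 222 mM. For these 9 genes, 1 rose and 2 fell at 24 h against 3 h in regular medium, and 0 rose and 3 fell at 48 h against uncut in 222 mM. The medians of that list in these 5 comparisons lay between log2 -0.30 and 0.19. Beside these counts, 19.9% of all genes were called at 48 h in 130 mM, 16.5% at 48 h in 222 mM, 7.03% and 34.1% at 24 h in 130 mM and in 222 mM against regular medium, 18.5% and 24.8% at 24 h against 3 h in regular medium and in 130 mM, and 17.2% at 48 h against uncut in 222 mM. The medians over all genes lay between log2 -0.01 and 0.02 there. What part any of these conditions has in the igfbp1 levels was not tested.

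Messages of skeletal muscle also moved with medium and time. The summed FPKM of 13 skeletal muscle markers, none of them at 0, lay at 25416 to 28239.6 in regular medium, at 20727 to 23493 in 130 mM and at 12905 to 15769.5 in 222 mM at 24 h. In 222 mM against regular medium at 24 h 0 of the 13 rose and 8 fell, with a median of log2 -1.19 beside 0.01 over all genes (34.1% called), among them the parvalbumin gene pvalb1 (log2 -2.32 ± 0.27). The falls of igfbp1b, igf2a and, at adjusted p = 0.049, igfbp1a in that comparison stand beside these lower muscle messages, whose part in them was not tested. Fewer muscle cells and less RNA per muscle cell cannot be told apart.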

How the data were processed

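RNA sequencing of 36 libraries of whole larvae was deposited as 1 table with a count and an FPKM value per gene and library. Per the submitters' processing notes, the authors worked with HISAT, StringTie, edgeR and GRCz11. The sources used here do not give the tool that made the deposited counts, its version or its strand setting. The FPKM values deposited by the authors were used for levels between genes and for the filter, at least 1 FPKM in at least 3 libraries, which left 20120 of 30221 genes.

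Counts were fitted in R 4.3.3 with edgeR 4.0.16 (TMM factors from 0.885 to 1.093, robust quasi-likelihood test) over all 36 libraries with 1 mean per group. Genes with an adjusted p under 0.05 within a comparison were called. The common biological coefficient of variation was 0.203. Standard errors are the absolute log2 fold change over the square root of F, and 95% intervals are ± 1.96 of them. The 27 comparisons of 2 groups were 12 between media, 9 against uncut larvae and 6 between times, and 3 F tests compared courses. The fit was also run on simulated counts with genes changed in a single comparison. These held no libraries that stood apart, so that run does not show how such libraries affect the calls.

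Alternatives were median-ratio scaling, no filter, DESeq2 1.42.0, limma 3.58.1 on log2(FPKM + 0.1) and log2(FPKM + 1), a replicate block, only the libraries compared, a criterion of the series (an absolute log2 fold change over 1 with p under 0.05), and leaving out each library. Leaving out 4 libraries together, the F test over cut times, the test of steps and a fit of the 27 libraries of cut larvae were added after the values were seen. Same-numbered replicates met the rule for pairing (a correlation of deviations over 0.1 in every pair) in 1 comparison, 3 h against uncut in 222 mM, with r of 0.174, 0.152 and 0.389.

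The 10 genes and the gene lists were chosen with earlier results of these data known. The lists held 154 genes, of which 151 were matched by symbol, 10 of them through another symbol. From a list up to 4 genes per comparison could be named, those with the smallest adjusted p, and likeness was given for the 3 genes with the highest correlation.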

Additional observations from a re-analysis of the deposited data

Results flagged for a closer look

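In 10 cases the course after amputation differed between media by the F test of the 3 responses against uncut larvae (edgeR, adjusted over all genes). The expression of igfbp1a differed between 130 mM and regular medium (adjusted p = 9.5e-05), between 222 mM and regular medium (0.00054) and between 222 mM and 130 mM (0.017). igfbp1b differed between 130 mM and regular medium (0.014) and between 222 mM and regular medium (0.0063). Each of these 5 was called in 24 of 24 fits with a library left out.

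igfbp2a differed between 130 mM and regular medium (adjusted p = 0.039), a call kept in 10 of 24 such fits, and between 222 mM and 130 mM (0.028), kept in 20 of 24. irs2b differed between 130 mM and regular medium (0.042), kept in 6 of 24, and between 222 mM and regular medium (0.015), kept in 24 of 24. igf1 differed between 222 mM and regular medium (0.016), kept in 24 of 24. In the F test over the cut times alone igf1 was not called (adjusted p = 0.13), nor was igfbp2a (0.35 and 0.4, in the order above). In that test the uncut libraries still enter the spread, and irs2b kept both calls (0.034 and 0.014). In the fit of the 27 libraries of cut larvae the F test called igfbp2a for 130 mM against regular medium (adjusted p = 0.036). It did not call igfbp2a for 222 mM against 130 mM (0.057) or igf1 for 222 mM against regular medium (0.12). The igf1 call, and that of igfbp2a between the doses, were therefore made only where levels of uncut larvae entered the test. Leaving out 1 library at a time does not test this. The F tests against regular medium share the regular-medium libraries, including the uncut replicate 3 that stood apart.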

How the results depend on the processing

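The 10 genes had 22 calls between media, 10 against uncut larvae, 6 between times and 10 in the tests of courses. Leaving out 1 library gave 18 (without replicate 1 of uncut 222 mM) to 37 (without replicate 3 of uncut regular medium) calls between media, 8 (without replicate 2 of uncut 130 mM) to 24 (without replicate 3 of uncut regular medium) against uncut larvae, 4 (without replicate 1 of 24 h regular medium) to 13 (without replicate 3 of uncut regular medium) between times, and 7 (without replicate 2 of uncut 130 mM) to 19 (without replicate 3 of uncut regular medium) in the tests of courses. Without the 4 libraries that stood apart the counts were 57, 36, 19 and 23, and 22, 10, 5 and 10 of the original calls were among them. Calls over all genes rose as well, for example from 180 to 3598 of 20120 at 3 h against uncut in 222 mM. In the tests of courses they rose from 3605, 3082 and 4901 to 11179, 8724 and 9235. The calls between times were 10 with DESeq2, 11 with only the libraries compared and 11 without the uncut libraries. Without the uncut libraries calls over all genes rose too, at 24 h against 3 h in regular medium from 3718 to 4580. For DESeq2, the libraries compared and the fits with 1 library left out no count over all genes is given. The changed counts are therefore no result about these 10 genes. With the 4 libraries that stood apart left out, igf2b in 130 mM against regular medium in uncut larvae reversed to log2 0.3967 (-0.05 with all libraries) and igfbp2a at 3 h against uncut in regular medium to log2 -0.651 (0.14 with all). Among those left out, uncut replicate 3 in regular medium held igf2b at 61.5 CPM, against 29.3 and 29.7. It held igfbp2a at 4.20 CPM, against 30.2 and 25.2. At 3 h, replicate 1 held igfbp2a at 30.3 CPM, against 17.8 and 17.5. Why these libraries differ was not tested. None of the 38 called values between 2 groups changed sign under the alternatives run. Among the values not called, 35 changed sign with those 4 left out, of which the 2 reversals of igf2b and igfbp2a then passed, and up to 25 did so under 1 other alternative. Some alternatives did not make all of the 22, 10 and 6 calls between 2 groups, in the order above. With only the libraries compared, 16, 7 and 5 of them were kept. The criterion of the series kept 15, 5 and 3. Limma kept 18, 8 and 5 on log2(FPKM + 0.1) and 18, 8 and 6 on log2(FPKM + 1). DESeq2 kept 22, 10 and 6.

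With the replicate block the counts were 22, 11, 7 and 9. Calls over all genes with the block are given for 1 comparison only, so these counts are no result about the 10 genes. The calls no longer made were irs2b in the test of courses for 130 mM against regular medium (adjusted p = 0.054), igfbp1a in 222 mM against regular medium at 24 h (log2 -0.685) and irs2b at 24 h against 3 h in 130 mM (log2 -0.74). Those added were igf1 in 130 mM against regular medium at 3 h (log2 1.198), igfbp1b at 24 h against uncut in regular medium (log2 1.491), igf2b at 24 h against 3 h in regular medium (log2 0.5352) and igfbp1b in that step in 130 mM (log2 -1.315). In the 1 comparison whose numbers pair the samples, 3 h against uncut in 222 mM, 159 genes were called with the block against 180 without it, none of the 10 in either. Changes of igf1 are limited by its counts, which went down to 16 in a library.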
